A study of Homo sapiens with 8 samples.

Results

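Of 10 genes linked to naive pluripotency, all of them transcription factors except DPPA3, 3 had a probe that passed the detection filter in these human embryonic stem cells, and 1 of them, GBX2, was several-fold brighter wherever bFGF was present. The 10 genes were GBX2, KLF2, KLF4, KLF5, TFCP2L1, TBX3, ESRRB, NR5A2, DPPA3 and KLF17. They were taken from the array by gene symbol, and 13 of the 24526 probes carried 1 of these symbols, out of 16922 genes named on the array. A probe was called detected on an array when its detection p-value, a comparison with negative control beads, was under 0.01. KLF2 was detected on 8 of 8 arrays, GBX2 on 7 and TBX3 on 6. The other 7 genes were detected on no array at this threshold.

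Naive pluripotency is the state of the preimplantation epiblast and of mouse embryonic stem cells, whereas conventional human embryonic stem cells kept in bFGF are held to be in a primed state, closer to the epiblast after implantation. In mouse embryonic stem cells the cytokine LIF signals through gp130 and STAT3 to Klf4, Tfcp2l1 and Gbx2, and inhibition of GSK3 relieves the repression of Esrrb and Tfcp2l1 by Tcf7l1. bFGF acts through FGF receptors on ERK kinases, and IL-11 acts, like LIF, through a receptor that contains gp130. The gp130 pathway, which IL-11 uses, thus reaches several of the genes in the mouse.

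The study cultured embryonic stem cells on Matrigel in N2B27 medium for 5 days in 4 conditions and asked whether IL-11 can take the place of bFGF. The conditions were +IL-11+bFGF with both cytokines, +bFGF with 24 ng/ml of bFGF alone, +IL-11 with 10 ng/ml of IL-11 alone, and −bFGF with neither, each on 2 Illumina human-8 arrays. The sample labels give the line as H1 and the paper's text as H9, both established human lines. Whether replicate arrays stem from separate cultures is not given in the sources used here, so p-values cover only array-to-array spread that may be technical. The label as embryonic stem cells was checked with a list of core pluripotency genes, of which 15 of 16 were named on the array and 11 were detected on all 8 arrays. DPPA2 was detected on none. Because RNA was taken from whole cultures, fewer cells that express a gene and less RNA per cell cannot be told apart.

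The arrays were alike in quality, with 10983 to 11761 probes detected on each (44.8% to 48.0%). The lowest intensity of a detected probe lay between 126 and 142 units, and the median of undetected probes between 76.3 and 80.0 units. Of the 10 genes, 3 passed the filter, which asked for detection on both arrays of at least 1 condition, and were tested by limma among 9269 genes. With a looser detection p of 0.05, KLF4, ESRRB and NR5A2 passed too. KLF5, TFCP2L1, DPPA3 and KLF17 passed neither.

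**Figure D1:**
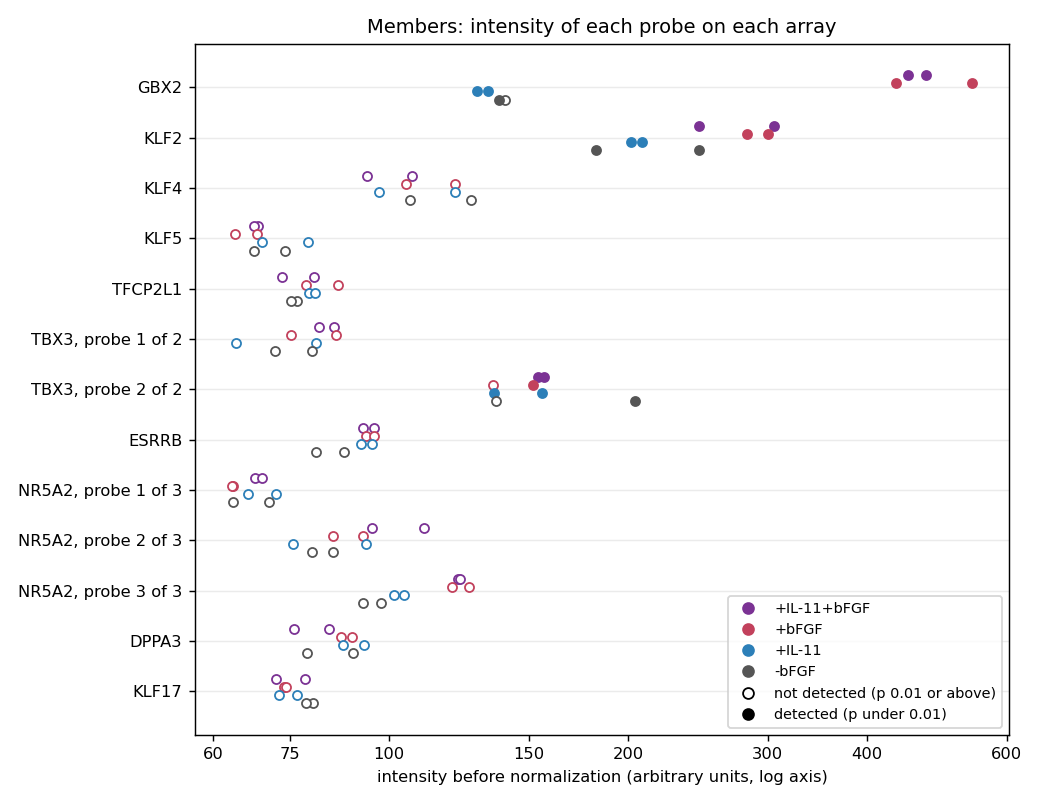
Intensity before normalization (arbitrary units, log axis) of the 13 probes on the 8 arrays. Each point is 1 array, coloured by condition, filled where the probe was detected and open where it was not. GBX2 separates into 2 clusters by the presence of bFGF, KLF2 is detected on every array, and 10 probes are open throughout.

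GBX2, a homeobox factor that positions the anterior hindbrain in the vertebrate embryo and supports self-renewal of mouse embryonic stem cells downstream of STAT3, gave the clearest pattern. Its intensity was 451 and 475 units in +IL-11+bFGF, 543 and 435 units in +bFGF, 133 and 129 units in +IL-11, and 140 and 138 units in −bFGF. Every array with bFGF was above every array without it, and the arrays without bFGF sat at the edge of detection. On these, GBX2 was detected on both +IL-11 arrays (detection p-value 0.00971 each) and 1 of the 2 −bFGF arrays, and missed on the other at a detection p-value of 0.0129.

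On the normalized log2 scale GBX2 averaged 8.68 ± 0.03 in +IL-11+bFGF, 8.76 ± 0.20 in +bFGF, 6.24 ± 0.01 in +IL-11 and 6.36 ± 0.10 in −bFGF (SD, n = 2 each). It was 5.26-fold higher in +bFGF than in −bFGF (log2 2.40, SE 0.15, limma, adjusted p = 2.81e-05). With IL-11 in the medium the bFGF effect was 5.40-fold (+IL-11+bFGF over +IL-11, log2 2.43, SE 0.15, adjusted p = 2.45e-05). Over all arrays, the 4 with bFGF exceeded the 4 without by 5.33-fold (log2 2.41, SE 0.11, adjusted p = 1.11e-06). An exact two-sided permutation test over the 8 arrays gave p = 0.0286, the smallest that its 70 splits allow, and 3 genes were tested in this way.

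These calls stood against many others. In +bFGF against −bFGF, 15.3% of the 9269 genes tested were called at an adjusted p of 0.05, 7.33% higher and 7.96% lower. The share was 11.3% in +IL-11+bFGF against +IL-11 (5.63% higher) and 27.8% over all arrays with bFGF against those without (13.4% higher and 14.5% lower). Complete separation of the 4 arrays with bFGF above the other 4 was found for 14.7% of genes tested.

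The level of GBX2 in +IL-11 was close to that in −bFGF. Both were at the edge of detection, where a further decrease could hardly show. GBX2 was 5.71-fold lower in +IL-11 than in +bFGF (log2 -2.51, limma, adjusted p = 2.02e-05), a comparison that called 13.2% of genes and 6.53% as lower. Between +IL-11 and −bFGF the log2 difference was -0.12 with a 95% interval of -0.45 to 0.22 (adjusted p = 0.894), and between +IL-11+bFGF and +bFGF it was -0.08 (interval -0.42 to 0.25). The interaction of the cytokines, the change of the bFGF effect brought by IL-11, was 0.04 with an interval of -0.44 to 0.51. No gene of the 9269 (0%) was called by limma in any of these 3 comparisons. At an unadjusted p of 0.05 there were 492 genes in +IL-11 against −bFGF, 161 in +IL-11+bFGF against +bFGF, and 176 for the interaction. A share of 0.05 of the 9269 tests would be there with no effect. The first count was near that number and the other counts were below it. The methods' t-test called 0 genes after adjustment in the comparisons of +IL-11 with −bFGF and of +IL-11+bFGF with +bFGF, but at 2 arrays a side it also called 0 in +IL-11+bFGF against +IL-11, where limma called 1048, so its 0 carries no information on IL-11.

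The size of the GBX2 difference moved with the handling of background. Without background correction the log2 difference over all arrays was 1.82 in place of 2.41. The gene stayed past the threshold in 17 of 17 alternatives of that comparison.

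KLF2, a Krüppel-like zinc finger factor that sustains naive pluripotency in the mouse, was the only member detected on all arrays. Its intensity was 305 and 245 units in +IL-11+bFGF, 282 and 300 units in +bFGF, 202 and 208 units in +IL-11, and 246 and 183 units in −bFGF. The highest array without bFGF, −bFGF replicate 1, and the lowest with it, +IL-11+bFGF replicate 2, were practically level in intensity. After normalization they stood at 7.49 and 7.56, so that the 4 arrays with bFGF lay just above the others only after normalization.

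The normalized level of KLF2 averaged 7.77 ± 0.31 in +IL-11+bFGF, 7.88 ± 0.14 in +bFGF, 7.24 ± 0.08 in +IL-11 and 7.26 ± 0.32 in −bFGF (SD, n = 2 each). Over all arrays KLF2 was 1.49-fold higher with bFGF than without (log2 0.58, SE 0.14, limma, adjusted p = 0.0136; exact two-sided permutation p = 0.0286). Neither single comparison of bFGF passed, with a log2 difference of 0.62 in +bFGF against −bFGF (adjusted p = 0.0655) and 0.54 in +IL-11+bFGF against +IL-11 (adjusted p = 0.120). Without +bFGF replicate 2 the comparison over all arrays gave 0.53 (adjusted p = 0.0512) and without +IL-11+bFGF replicate 1 it gave 0.47 (adjusted p = 0.0534), so the call rests on these arrays. The interval for +IL-11 against −bFGF ran from -0.47 to 0.42 and that for +IL-11+bFGF against +bFGF from -0.55 to 0.34. Between +IL-11 and +bFGF the difference was -0.64 and missed the threshold (adjusted p = 0.0616).

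**Figure D2:**
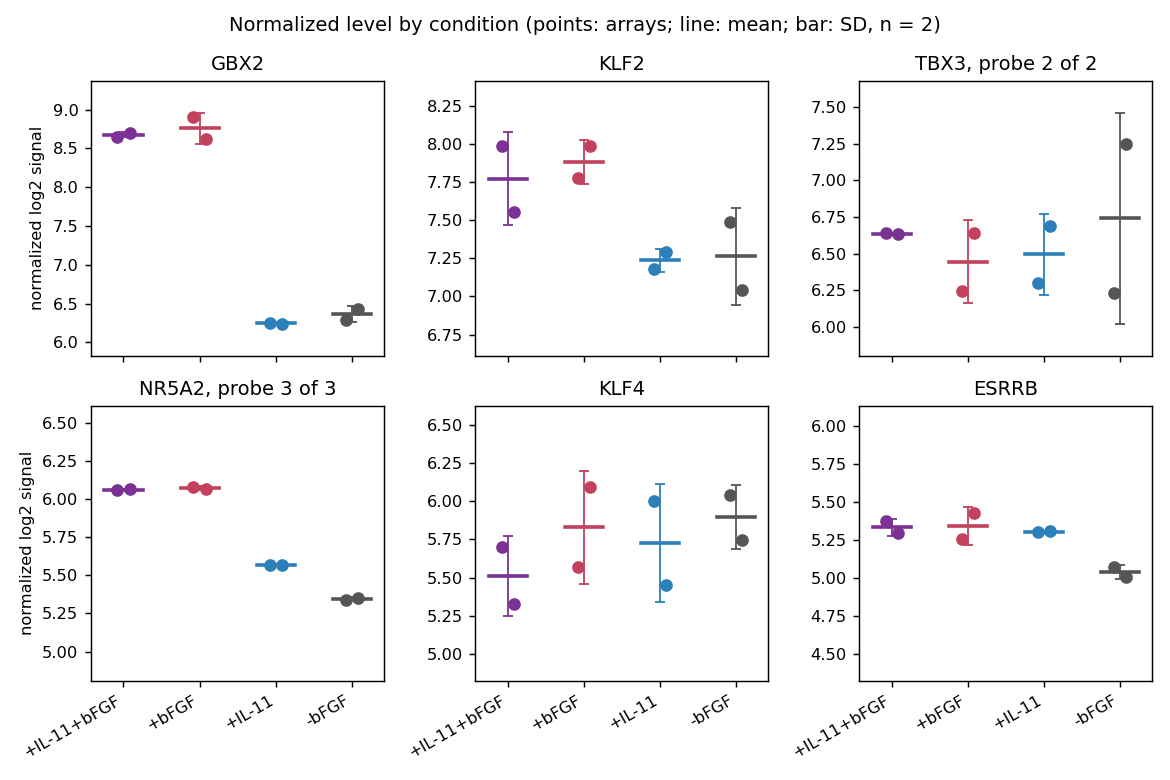
Normalized log2 signal of 6 genes in the 4 conditions, with points for the arrays, a line for the mean and a bar for the SD (n = 2). GBX2 falls into a high and a low pair of conditions, KLF2 and probe 3 of NR5A2 are also higher in the conditions with bFGF, by less. For TBX3 and KLF4 the arrays with bFGF overlap those without, and ESRRB is lowest in −bFGF.

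GBX2 and KLF2 were the tested members that were higher with bFGF, so the sequence before their start sites is given, taken from RefSeq (GRCh38.p14). Both stretches of 250 bases are rich in G and C, 72% in GBX2 and 80% in KLF2. Capitals mark each GGGCGG, the GC box that SP and Krüppel-like factors can bind, or its reverse complement. The GBX2 stretch lies at chr2:236168387-236168636 on the minus strand and that of KLF2 at chr19:16324576-16324825 on the plus strand.
GBX2: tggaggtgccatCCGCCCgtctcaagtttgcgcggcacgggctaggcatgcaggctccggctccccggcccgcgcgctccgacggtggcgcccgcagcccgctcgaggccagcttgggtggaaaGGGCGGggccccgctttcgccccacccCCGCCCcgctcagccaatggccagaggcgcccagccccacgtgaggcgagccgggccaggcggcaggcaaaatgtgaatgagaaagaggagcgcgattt
KLF2: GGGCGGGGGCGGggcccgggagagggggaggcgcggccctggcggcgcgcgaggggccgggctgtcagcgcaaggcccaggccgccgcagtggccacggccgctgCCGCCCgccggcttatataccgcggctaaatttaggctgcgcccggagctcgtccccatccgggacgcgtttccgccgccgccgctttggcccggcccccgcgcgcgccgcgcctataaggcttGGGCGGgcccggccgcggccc

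The motif occurs 3 times in the GBX2 stretch and 4 times in that of KLF2. The promoter set used here held a start site for 9 of the 10 genes, all but TBX3, with 13 windows in all. Of these windows 6, each of a different gene, contained GGGCGG on either strand, against 42.6% of 35116 promoters of the same length. KLF4, KLF5, TFCP2L1 and KLF17 were the other genes with a match, and none of these was detected on any array. A STAT motif, TTCNNNGAA, was found in 1 window, that of an ESRRB start, against 6.57% of all promoters, and an ETS motif, CCGGAA, in that of TFCP2L1, against 14.5%. Each motif was searched on both strands and counted separately from the others, and a match is a description of letters only.

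TBX3, a T-box factor that supports self-renewal of mouse embryonic stem cells, had 2 probes, and they differed. The brighter gave 154 and 157 units in +IL-11+bFGF, 135 and 152 units in +bFGF, 135 and 156 units in +IL-11, and 136 and 204 units in −bFGF. The arrays with bFGF overlapped those without, and −bFGF replicate 2 stood above the other 7 arrays. Its log2 difference over all arrays was -0.08 (SE 0.22, adjusted p = 0.821), with an interval of -0.56 to 0.41, and in +bFGF against −bFGF it was -0.30 (SE 0.31, adjusted p = 0.549). Without −bFGF replicate 2 the comparison of +bFGF with −bFGF gave 0.21 (adjusted p = 0.671). The other TBX3 probe ranged from 64.2 to 85.8 units and was detected on no array.

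NR5A2, an orphan nuclear receptor that can stand in for OCT4 in the reprogramming of mouse cells and drives Pou5f1 in the mouse epiblast, was dim on all arrays. The brightest of its 3 probes gave 122 and 123 units in +IL-11+bFGF, 126 and 120 units in +bFGF, 104 and 102 units in +IL-11, and 97.7 and 92.8 units in −bFGF. The arrays with bFGF lay above those without, and the detection p-value was between 0.0129 and 0.0421 throughout. At a detection p of 0.05, where 11733 genes were tested, its log2 difference with bFGF over without was 0.61 (SE 0.11, adjusted p = 0.00275), and 0.73 in +bFGF against −bFGF (adjusted p = 0.0135). The size moved with background handling, to 0.31 and 0.37 without background correction, and to 0.94 and 1.19 in the authors' normalized table. Of the genes tested there, 11.3% were higher in the first comparison, 5.81% in the second, and 13.1% separated their arrays completely in this direction.

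The NR5A2 probes differed from each other. With every probe fitted singly, the log2 differences of the 3 probes over all arrays were 0.61 (adjusted p = 0.00788), 0.35 (adjusted p = 0.106) and -0.03 (adjusted p = 0.832). The second of these was under a detection p of 0.05 on 4 arrays and the third on 0. The probe that was higher with bFGF was annotated to another transcript than the other two. No array reached the detection threshold of 0.01 for NR5A2, so these are differences of a signal close to background and not measured fold changes of the transcript.

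KLF4, a reprogramming factor and STAT3 target in the mouse, gave 107 and 93.7 units in +IL-11+bFGF, 105 and 121 units in +bFGF, 121 and 97.1 units in +IL-11, and 127 and 106 units in −bFGF. The conditions overlapped and all detection p-values lay between 0.0162 and 0.0324. The log2 difference with bFGF over without was -0.14 (SE 0.18, adjusted p = 0.614). ESRRB, an orphan receptor that is a Tcf7l1 target in the mouse, gave 95.8 and 92.8 units in +IL-11+bFGF, 93.6 and 95.8 units in +bFGF, 95.2 and 92.3 units in +IL-11, and 87.8 and 81.0 units in −bFGF. Both −bFGF arrays were lowest and were the only ones with a detection p above 0.05. In +bFGF against −bFGF the log2 difference of ESRRB was 0.30 (limma, adjusted p = 0.239), and over all arrays 0.16 (adjusted p = 0.320). In +IL-11 against −bFGF it was 0.26 (95% interval -0.08 to 0.61, adjusted p = 0.834).

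**Figure D3:**
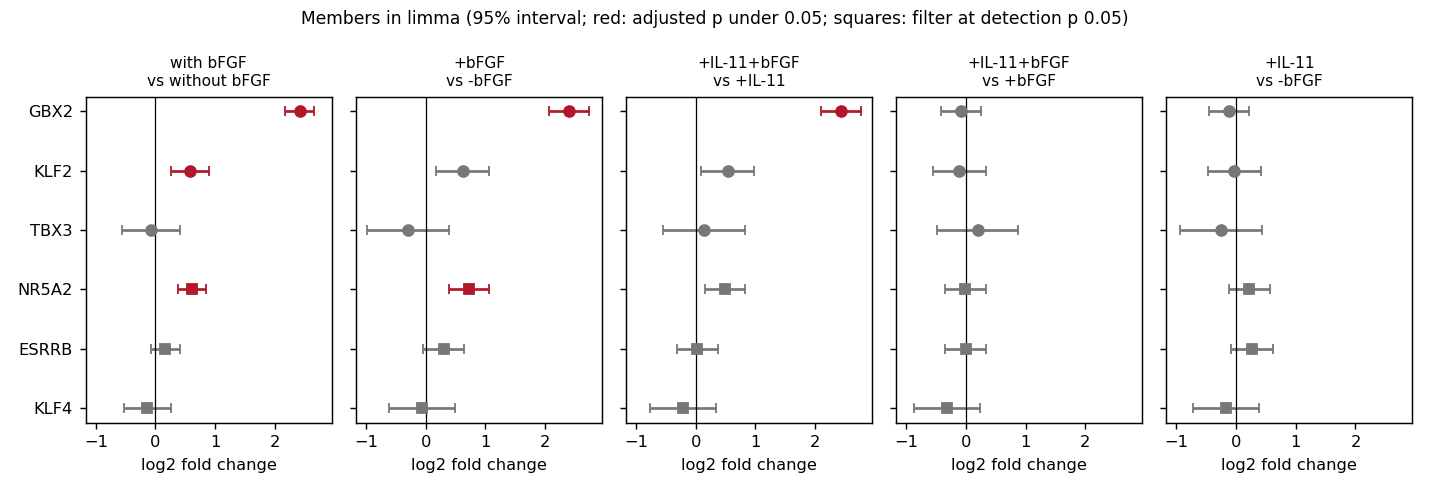
Log2 fold change of the 6 members that could be fitted, with 95% intervals, in 5 comparisons (limma). Red points passed an adjusted p of 0.05, and squares come from the filter at a detection p of 0.05. GBX2 is near 2.4 in the 3 comparisons of bFGF, and the intervals of all 6 genes include 0 in both comparisons of IL-11.

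The remaining members were at the level of undetected probes. KLF5, a factor of the inner cell mass and trophectoderm in the mouse, ranged from 63.9 to 79.1 units over the 8 arrays. TFCP2L1, a main STAT3 effector in mouse embryonic stem cells, ranged from 73.3 to 86.3 units. KLF17, which marks naive human cells and the human epiblast, ranged from 72.0 to 80.1 units. The lowest detection p-value was 0.126 for KLF5, 0.0680 for TFCP2L1 and 0.129 for KLF17. DPPA3, a maternal factor that shields DNA methylation marks in the mouse zygote, ranged from 75.9 to 92.9 units and was under 0.05 on 2 arrays, +bFGF replicate 1 and +IL-11 replicate 2. At these intensities a difference between conditions was not detectable, and a probe that is not detected does not show that its gene is silent.

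Genes outside the set whose profiles over the 8 arrays lay closest to those of GBX2 were ETV4, APLN, DUSP6, ETV5 and TRIML2. The measure was the root mean square difference of log2 values centred on each gene's mean, and it ran from 0.12 for ETV4 to 0.18 for TRIML2 among 9268 genes. Genes picked for likeness to GBX2 or KLF2 on these same arrays differ with bFGF in a similar way by selection. Their fold changes and p-values are thus a description and no separate result. ETV4 and ETV5 are ETS factors, DUSP6 is a phosphatase of ERK and APLN encodes the peptide apelin. With bFGF over without, ETV4 was 5.38-fold higher (adjusted p = 1.10e-06), DUSP6 5.45-fold (adjusted p = 1.96e-06), ETV5 4.44-fold (adjusted p = 1.62e-07) and TRIML2 5.13-fold (adjusted p = 3.67e-06). APLN was not detected on any of the 4 arrays without bFGF and was at least 2.46-fold higher with it (adjusted p = 4.32e-06). That bound sets the mean of the bright arrays against the lowest detected signal of each dim array. An adjusted p beside a bound, here and below, belongs to the fitted difference and not to the bound. The genes closest to KLF2 were HSD17B6, MBNL1, GATC, CDC42EP2 and EDEM1, at 0.0958 to 0.125. Of these, CDC42EP2 was 1.51-fold higher (adjusted p = 0.00343) and HSD17B6, detected on 1 of 4 arrays without bFGF, had a log2 difference of 0.45 that missed the threshold (adjusted p = 0.0533).

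**Figure D4:**
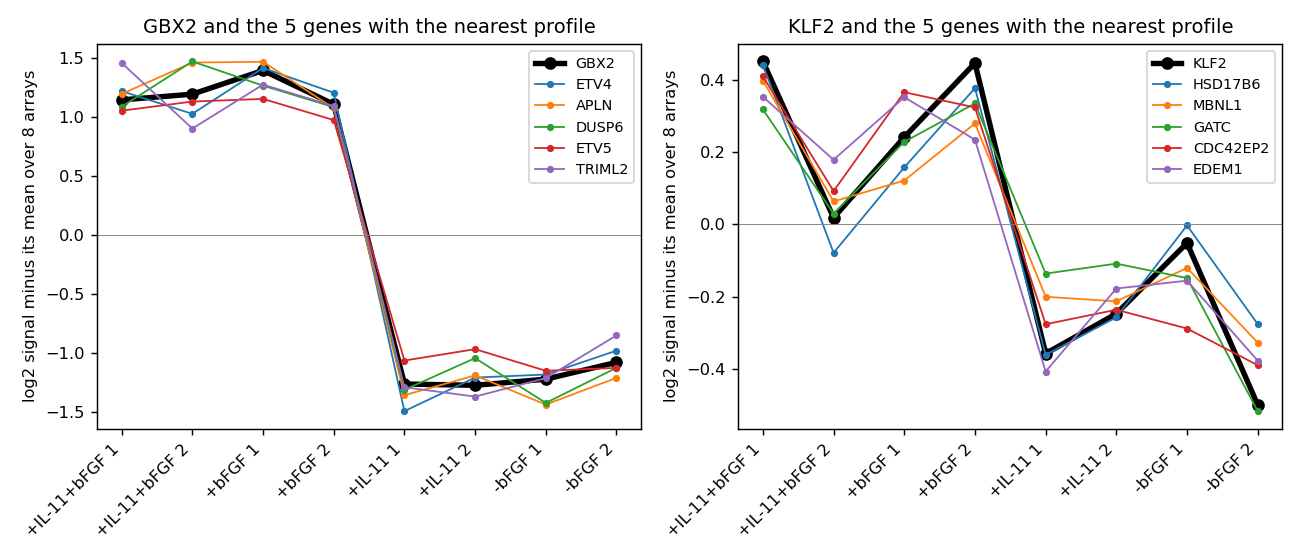
Log2 signal minus its mean over the 8 arrays for GBX2 (left) and KLF2 (right), in black, with the 5 genes of nearest profile, for each array along the horizontal axis. The GBX2 group steps down between arrays with and without bFGF, and the KLF2 group does so with a smaller step and more spread among arrays.

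Other genes that mark naive human cells were also mostly undetected. Of a list of 12, 9 were named on the array and 7 of those, DPPA5, DNMT3L, KHDC3L, NLRP7, ARGFX, FGF4 and IL6R, were detected on no array. The 2 that were tested were both lower with bFGF than without. TFAP2C, an AP-2 factor needed for naive human pluripotency and also expressed in trophectoderm and germ cells, was 2.60-fold lower (log2 -1.38, adjusted p = 7.39e-05). SUSD2, a surface marker of naive human cells, was 1.38-fold lower (adjusted p = 0.00425), and its difference in +bFGF against −bFGF alone, -0.36, missed the threshold (adjusted p = 0.0830). The direction of these genes was thus opposite to that of GBX2 and KLF2.

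Core pluripotency and primed genes moved both ways with bFGF. Over all genes tested, 13.4% were called higher and 14.5% lower with bFGF, the shares to set beside the counts of each list. In the core list 7 of 14 genes tested were higher with bFGF and 4 lower, with a median log2 difference of 0.48 against -0.01 over all genes. POU5F1, which encodes OCT4, was 2.37-fold higher (adjusted p = 9.13e-06) and TERF1, a telomere protein, 2.12-fold higher (adjusted p = 1.02e-05). FOXD3, a forkhead factor that also marks neural crest, was not detected on any array with bFGF and was at least 3.13-fold lower there (adjusted p = 9.04e-05). GDF3, SALL4 and LIN28A were 1.39-fold, 1.33-fold and 1.21-fold lower (adjusted p = 0.00764, 0.00628 and 0.00810). UTF1 was detected on 3 of 4 arrays with bFGF and on none without. It was at least 1.17-fold higher with bFGF (adjusted p = 7.18e-05 for the fitted difference). The core median was 0.28 with these 2 genes at their bounds. Of 9 genes of primed cells tested, 2 were higher and 3 lower, with a median of -0.06. DUSP6 and SFRP2, a secreted WNT antagonist (2.15-fold, adjusted p = 7.30e-06), were higher. DUSP6 also counts in the FGF and ERK list below and was among the genes nearest to GBX2. OTX2, a head and forebrain homeobox factor, was 2.50-fold lower (adjusted p = 3.67e-06), SOX11 1.59-fold lower (adjusted p = 0.00110) and CDH2, N-cadherin, 1.45-fold lower (adjusted p = 0.000991).

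Relatives of the members were examined because a family member can be expressed where another is not. Of 13 other KLF genes, 7 were tested and 6, KLF1, KLF3, KLF7, KLF14, KLF15 and KLF16, were detected on no array. KLF10 was 1.38-fold higher with bFGF (adjusted p = 0.0208), while KLF11 was 1.38-fold lower (adjusted p = 0.00141) and KLF6 1.36-fold lower (adjusted p = 0.000824). KLF9 missed the threshold at a log2 difference of 0.36 (adjusted p = 0.108). The median of the 7 was -0.06. Among 5 tested paralogs outside this family, with a median of 0.07, TBX2 was 3.00-fold higher with bFGF (log2 1.59, adjusted p = 0.000163), detected on 4 of 4 arrays with bFGF and 3 of 4 without. ESRRG and UBP1, a paralog of TFCP2L1, were lower (1.54-fold, adjusted p = 0.0387, and 1.27-fold, adjusted p = 0.0212), with ESRRG detected on 1 of 4 arrays with bFGF. TFCP2, also a paralog of TFCP2L1, had a log2 difference of 0.07 (adjusted p = 0.579).

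Lists for the FGF and ERK, the gp130 and STAT3, and the WNT, GSK3 and TCF pathways were read from the same arrays. In the FGF and ERK list 10 of 11 genes tested were higher with bFGF and 0 lower, with a median of 1.76. SPRY4, a feedback inhibitor of the pathway, rose 7.33-fold (adjusted p = 1.32e-07). In the gp130 and STAT3 list 3 of 9 were higher, against 13.4% of all genes tested, and 0 lower, with a median of 0.17. These were JAK1, a gp130-associated kinase (1.77-fold, adjusted p = 0.00199), MYC (1.73-fold, adjusted p = 0.000501) and BCL3, an NF-kappaB cofactor (1.53-fold, adjusted p = 0.0163, detected on 2 of 4 arrays without bFGF). LIFR was detected on 3 of 4 arrays with bFGF and none without, and it missed the threshold (adjusted p = 0.0705). The probes of IL6ST, the gene of gp130, and of SOCS3, a STAT3 target, were detected on no array. In the WNT, GSK3 and TCF list 4 of 8 were lower with bFGF and 0 higher, with a median of -0.60. These were the WNT targets AXIN2 (4.06-fold lower, adjusted p = 1.32e-07), SP5 (4.11-fold, adjusted p = 3.92e-05), NKD1 (4.38-fold, adjusted p = 2.33e-05, detected on 2 of 4 arrays with bFGF) and LEF1 (2.21-fold, adjusted p = 5.24e-05). In +IL-11 against −bFGF none of the 13 lists had a gene past the threshold, as no gene was called there.

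Lists of markers of other cells had negative median differences with bFGF, whereas GBX2 and KLF2 were higher. GBX2 is itself used as a hindbrain gene, and in a hindbrain and midbrain-hindbrain boundary list 4 of 6 genes tested were lower with bFGF and 0 higher, with a median of -0.89, or -0.75 with 2 genes at their bounds. The summed normalized signal of that list was 2601 to 4107 units on arrays with bFGF and 5115 to 6900 units on arrays without. EN1, EN2, PAX2 and PAX5 were detected on no array. WNT1, a signal of that boundary, was not detected on any array with bFGF and was at least 5.53-fold lower there (adjusted p = 6.05e-07), and FGF8 at least 1.80-fold lower (adjusted p = 8.53e-06). IRX3 was 2.20-fold lower (adjusted p = 0.00157) and HOXA2 1.57-fold lower (adjusted p = 0.0170). HOXB1 and HOXB2 were tested and not called, with log2 differences of -0.14 and -0.12 (limma, adjusted p = 0.459 and 0.582).

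In the trophectoderm list 4 of 5 genes tested were lower with bFGF and 0 higher, with a median of -0.93, or -0.78 with GATA3 at its bound. The summed signal was 2328 to 3670 units with bFGF and 7194 to 10485 units without. GATA2, CGA, CGB5 and ELF5 were detected on no array. CDX2 was tested and not called, with a log2 difference of 0.06 over all arrays (limma, adjusted p = 0.908). In +bFGF against −bFGF its difference was 0.45 (adjusted p = 0.533). HAND1 was 5.24-fold lower (adjusted p = 0.00172) and TFAP2A 2.58-fold (adjusted p = 0.000198). KRT7 was 1.71-fold lower (adjusted p = 0.00913, detected on 1 of 4 arrays with bFGF and 3 of 4 without). GATA3, detected on no array with bFGF and 3 of 4 without, was at least 1.18-fold lower (adjusted p = 0.0124 for the fitted difference).

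In the endoderm list 1 of 5 was lower, APOA1 (2.52-fold, adjusted p = 0.0412), against 14.5% of all genes tested. The list median was -0.97. AFP, TTR and SOX17 had log2 differences of -1.44, -0.97 and -0.18 that missed the threshold (adjusted p = 0.0971, 0.225 and 0.616). The summed signal overlapped, at 1497 to 6519 units with bFGF and 4271 to 9753 units without, and GATA4 and GATA6 were detected on no array. Both germ cell genes tested were lower with bFGF, PRDM1 1.42-fold (adjusted p = 0.0257) and KIT 1.45-fold (adjusted p = 0.00163), with a median of -0.52, a summed signal of 715 to 821 units with bFGF and 977 to 1125 units without, and DAZL detected on no array. In the fibroblast list 4 of 5 were lower and 1 higher, with a median of -0.41, a summed signal of 19201 to 23944 units with bFGF and 25059 to 32340 units without, and LUM and POSTN detected on no array. COL3A1 was 1.85-fold lower (adjusted p = 0.00259), DCN 1.92-fold (adjusted p = 0.0116) and COL1A1 1.32-fold (adjusted p = 0.0387), whereas THY1, also a surface antigen of embryonic stem cells, was 3.72-fold higher (adjusted p = 1.83e-06). The part of these cell populations in the levels of GBX2 and KLF2 was not tested.

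**Figure D5:**
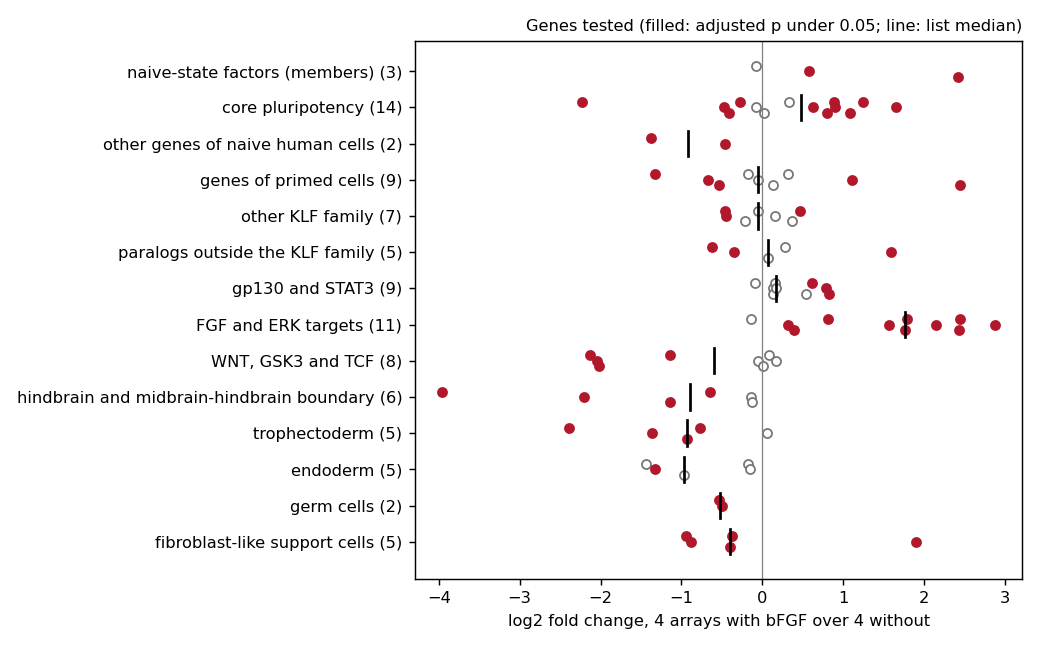
Log2 fold change of the 4 arrays with bFGF over the 4 without for each tested gene of the members and the 13 lists, with the number tested in brackets. Filled points passed an adjusted p of 0.05 and vertical lines are list medians (none is drawn for the members). Values of genes not detected on 1 side, such as WNT1 and FOXD3, are fitted and are no bound. FGF and ERK targets lie to the right, and WNT, hindbrain and trophectoderm genes mostly to the left.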

How the data were processed

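For the 8 arrays the authors deposited raw probe intensity, each value with its detection p-value, and a table of normalized intensity. The methods describe that table as background-subtracted and rank invariant normalized in BeadStudio, while GenomeStudio, without a version, stands in the processing notes of the submitters. The number of arrays limits the precision.

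Probes were named from the platform annotation, updated through current gene identifiers (21834 of 24526 probes with 1 symbol, 2692 unnamed, and 21813 linked). With limma 3.58.1 in R 4.3.3, non-normalized intensities were corrected by normexp (offset 16, negative controls inferred from the detection p-values), quantile normalized and log2 transformed. Probes detected at 0.01 on each replicate of some condition were kept, 11668 in number, and the brightest stood for its gene. A single fit of all 8 arrays had a mean per condition and an intensity trend (4 residual and 5.69 prior degrees of freedom), and each of 7 comparisons was Benjamini-Hochberg adjusted over 9269 genes.

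The members and the 13 lists were chosen with earlier results of these data known. Of 134 list genes, 120 are on the array. Text names all members, up to 4 genes per list (largest absolute log2 fold change in +bFGF against −bFGF) and 5 genes of nearest profile per called member. GDF3, SALL4, LIN28A, CDH2, CDX2, HOXB1 and HOXB2 were added after their values were seen. Probe sequences were not used, so hybridization to pseudogenes or relatives was not checked.

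On simulated data the comparison over all arrays recovered 87.8% of 1.5-fold, 99.0% of 2-fold and 100% of 4-fold changes among 200 changed genes of 9269, with 6.59% of calls false. In +bFGF against −bFGF it recovered 56.6%, 93.0% and 99.9%, with 6.95% of calls false. The simulation drew independent noise from the fitted spread, and fewer genes changed in it than were called in the data. These rates need not hold for the real arrays. Alternatives tried were leaving out each array, the replicate number as a block, other detection filters, averaged probes, a fit without trend or without background correction, scaling by the median, the normalized table of the authors, fits of only the arrays compared, and the t-test of the methods. The fits at a detection p of 0.05 for KLF4, ESRRB and NR5A2, and of every probe singly, were chosen after seeing the data.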

Additional observations from a re-analysis of the deposited data

Results flagged for a closer look

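A probe of NR5A2 that lay below the detection threshold, and so outside the test of 9269 genes, was 0.61 higher on the log2 scale on the 4 arrays with bFGF than on the 4 without. It drew attention because all 4 arrays with bFGF (normalized log2 values 6.06 to 6.08) lay above the others (5.34 to 5.57). Such separation is common: it was found for 13.1% of the 11733 genes tested at a detection p of 0.05. The difference was 0.31 without background correction and 0.94 in the authors' normalized table. The other probes of the gene gave 0.35 and -0.03.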

How the results depend on the processing

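Direction and call of GBX2 held in 17 of 18 alternatives of +bFGF against −bFGF (log2 1.82 to 2.59). The exception was the methods' t-test (2.40, adjusted p = 0.222), which with 2 arrays a side called 0 members in +bFGF against −bFGF, +IL-11+bFGF against +IL-11 and +IL-11 against +bFGF. KLF2 over all arrays passed in 16 of 18 alternatives (0.44 to 0.69, adjusted p = 0.0085 to 0.0534), and NR5A2 in 16 of 16 over all arrays and 12 of 17 in +bFGF against −bFGF. Detection on all 8 arrays removes GBX2 from the test, leaving 0 members called in each of these 3 comparisons and 1 over all arrays. Members called in +bFGF against −bFGF were 2 with a detection p of 0.05 and 2 with no filter, and in +IL-11 against +bFGF 2 with only the arrays compared. Leaving out each array gave 1 to 2 members called in +bFGF against −bFGF, in +IL-11 against +bFGF and over all arrays. Signs turned only for differences past no threshold: the GBX2 interaction was -0.0035 without background correction and KLF4 in +bFGF against −bFGF 0.0406 in the authors' normalized table. With each array left out, the ranges in +bFGF against −bFGF were -0.81 to 0.21 for TBX3 and -0.33 to 0.20 for KLF4. Over all arrays TBX3 ran from -0.33 to 0.18, in +IL-11+bFGF against +IL-11 from -0.0519 to 0.34, and in +IL-11 against +bFGF from -0.15 to 0.25. In +IL-11 against −bFGF KLF2 ran from -0.25 to 0.20 and TBX3 from -0.76 to 0.26. In +IL-11+bFGF against +bFGF the ranges were -0.22 to 0.0611 for GBX2, -0.33 to 0.11 for KLF2 and -0.0067 to 0.40 for TBX3, and for the interaction -0.11 to 0.18, -0.31 to 0.14 and -0.0701 to 0.95. The cause was not tested. Same-numbered arrays did not deviate together in every pair of conditions (correlations -0.06 to 0.20), and with the replicate block KLF2 over all arrays was 0.58 (adjusted p = 0.0118) and no call of a member changed. Signal over background limits 10 of the 13 probes.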
